A study of Homo sapiens with 4 samples.

Results

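The 10 genes examined here encode the enzymes and chaperones that fold, hydroxylate and cross-link collagen: SERPINH1, FKBP10, P4HA1, P4HA2, PLOD1, PLOD2, PLOD3, LOX, LOXL1 and LOXL2. They were taken as a list of names and matched by symbol and Ensembl identifier. The list was chosen with earlier results of these data known. All 10 were found among the 63856 genes of the count table and all 10 were among the 15830 genes with enough reads to be tested. Their counts per library ran from 106 to 8841.

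Collagen chains are modified in the endoplasmic reticulum before they leave the cell. Prolyl 4-hydroxylase makes the hydroxyproline that keeps the triple helix stable at body temperature, lysyl hydroxylases modify the lysines that later carry sugars and cross-links, and HSP47 and FKBP65 assist folding of the helix. Outside the cell, lysyl oxidases convert lysines and hydroxylysines into the aldehydes from which the covalent cross-links of collagen and elastin form, and the resulting stiffness of the matrix is much studied around mammary epithelium.

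The RNA-seq data come from MCF10A, a human breast epithelial line that does not form tumours, and were made to see what stable overexpression of HSF1, the main transcription factor of the heat shock response, does to gene expression. Wild type cells (WT, n = 2) were compared with cells that carry HSF1 in the lentiviral pLVX-Puro vector and were selected with puromycin (HSF1-pLVX, n = 2). Both variants grew in medium with horse serum, insulin, hydrocortisone and EGF, and the labels, unlike the study's methods, also list cholera toxin. Cells with the empty vector were not analysed here, so the effects of HSF1, of the vector with its selection, and of separate culture cannot be told apart.

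Values are given as CPM, which are counts scaled by edgeR's TMM method to a common library size, and as CPM per kilobase of counted exon wherever 2 genes are compared. Fold changes are HSF1-pLVX over WT on the log2 scale from edgeR's quasi-likelihood fit blocked by replicate number, each with its standard error (SE). Adjusted p-values are from that test with Benjamini-Hochberg adjustment over the 15830 tested genes unless another tool is named, and the threshold for a call was 0.05. With 2 libraries in each variant, exact permutation of a single gene's values reaches p = 0.333 at best. The edgeR test therefore borrows the spread of other genes with like expression.

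HSF1 itself (ENSG00000185122.10) stood at 200.4 and 189 CPM in WT and at 982 and 999 CPM in HSF1-pLVX cells, a log2 fold change of 2.35 (SE 0.15, adjusted p = 5.77e-55). The 4 libraries held between 18688109 and 24184285 counts. All 12 markers of mammary epithelial cells were detected, but their summed level was 22631 and 23265 CPM in WT and 10875 and 11445 CPM in HSF1-pLVX cells, with 9 called lower and 3 higher. Abundant keratins weigh most in this sum. Mean KRT17 went from 7194 to 1220 CPM and KRT8 from 3165 to 335 CPM, while KRT5, among the 3 called higher, went from 2113 to 4592 CPM. Of 13 fibroblast markers, 7 were too low to be tested, among them COL1A2, COL3A1 and LUM, and of the other 6, 4 were called higher, 1 (FAP) lower and 1 was not called, with a median log2 fold change of 1.47. Among the 4 called higher, TWIST1 (102, 109, 350 and 352 counts) and TWIST2 (104, 112, 357 and 351) were nearly equal in every library. Whether the same reads were counted for both was not tested. The median lies between their log2 fold changes of 1.48 and 1.46 and so rests on these 2 genes. The summed level of the list was 221 and 253 CPM in WT and 135 CPM in both HSF1-pLVX libraries, of which FAP, the marker called lower, held 204 ± 17.6 CPM in WT and 39.9 ± 6.98 CPM in HSF1-pLVX cells. The 7 markers of endothelial, blood and fat cells summed to at most 1.51 CPM in any library and PTPRC, the pan-leukocyte marker, was at 0 counts in all 4. Of all tested genes, 32.5% were called higher and 32.7% lower. The part of these marker shifts in the results below was not tested.

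Most of the collagen enzymes were higher in HSF1-pLVX cells. In the edgeR test, 8 of the 10 were called higher, where 32.5% of all tested genes were, and 1, PLOD2, was called lower, where 32.7% of all tested genes were. LOXL1 was not called. In RNA from whole cultures, a change in the number of expressing cells and a change per cell cannot be told apart. LOXL2, FKBP10, SERPINH1 and PLOD1 were at least 2-fold higher, against 14.9% of all tested genes, and none was at least 2-fold lower, against 14.0%. The 10 genes had a median log2 fold change of 0.88, beside 0.02 over all tested genes. The WT and HSF1-pLVX libraries did not overlap for any of the 10, 8 being higher (42.1% of all tested genes) and 2 lower (41.0%). Within replicate number 1 and within replicate number 2 every gene kept its direction, and the log2 ratios of the 2 numbers differed by at most 0.310.

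**Figure D1:**
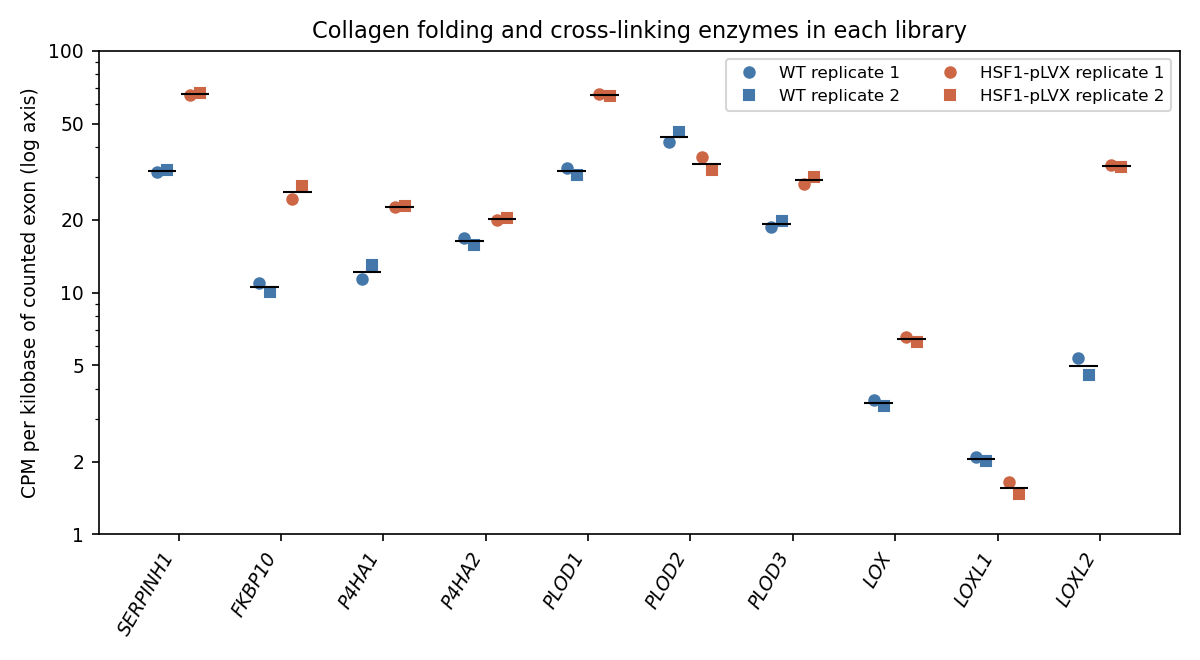
Level of each collagen folding and cross-linking enzyme in CPM per kilobase of counted exon, on a log axis, in the 2 WT (blue) and 2 HSF1-pLVX (orange) libraries. Circles are replicate 1, squares replicate 2 and black lines group means. LOXL2 moves from 4.96 to 33.3 CPM per kilobase, while PLOD2 and LOXL1 sit lower in both HSF1-pLVX libraries.

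The genes were also ordered by level per length. In WT cells PLOD2 was highest at 44.1 ± 2.81 CPM per kilobase (SD, n = 2), followed by SERPINH1 and PLOD1, both at 31.8, whose libraries overlapped. LOXL1 was lowest at 2.05 ± 0.058, with LOX (3.50 ± 0.15) and LOXL2 (4.96 ± 0.54) just above it. In HSF1-pLVX cells SERPINH1 (66.4 ± 0.98) and PLOD1 (65.7 ± 0.70) led, again without separation between them, and PLOD2 had come down to 34.2 ± 3.01. LOXL2, at rank 8 in WT cells, had rank 4 at 33.3 ± 0.39 and overlapped PLOD2 in its libraries. Counted lengths include every annotated exon, so these levels compare genes only approximately.

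SERPINH1 encodes HSP47, the chaperone of the endoplasmic reticulum that binds the folded procollagen helix. The gene (ENSG00000149257.13, chr11:75562056-75572783 on hg38, plus strand) stood at 155 and 157 CPM in WT cells and at 323 and 329.9 CPM in HSF1-pLVX cells. Both HSF1-pLVX libraries lay far above both WT libraries, a log2 fold change of 1.06 (SE 0.12, adjusted p = 3.83e-18), or 2.09-fold. The log2 ratio was 1.06 within replicate 1 and 1.07 within replicate 2, so the replicates gave nearly the same change. FKBP10 encodes FKBP65, a prolyl isomerase that also acts in procollagen folding and in lysine hydroxylation of the telopeptides. FKBP10 (ENSG00000141756.18, chr17:41812680-41823217, plus strand) was at 46.8 and 43.0 CPM in WT and at 104 and 118 CPM in HSF1-pLVX cells. Its log2 fold change was 1.30 (SE 0.10, adjusted p = 5.52e-34), the second largest of the 10 after LOXL2. The replicates differed more here, with log2 ratios of 1.15 and 1.46.

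HSF1 acts through heat shock elements, inverted repeats of the unit GAA separated by NN, so the RefSeq promoter windows (GRCh38.p14, 250 bases before and 50 after a start) of 8 of the 10 genes were searched on both strands. FKBP10 and LOXL2 had no entry. A three-unit element, which contains the two-unit motifs TTCNNGAA and GAANNTTC overlapping in TTC or GAA, is present in 0.490% of the 35116 windows of the table. Among the 8 genes it was found only in SERPINH1, 76 to 64 bases before the start. The stretch is printed with the element in capitals, because SERPINH1 encodes a heat shock protein, at chr11:75562169-75562198 on the plus strand, which lies in an exon of 2 of 16 GENCODE release 44 transcripts.
SERPINH1: ttccaactTTCCAGAAGTTTCtcgggacgg
The two-unit motif GAANNTTC, which 6.77% of windows hold, was also found in PLOD1, as GAAGTTTC from base 5 to base 12 after the start. The windows of P4HA1, P4HA2, PLOD2, PLOD3, LOX and LOXL1 held none of these motifs. A match is a description of the letters and not evidence of binding, and enhancers and other starts were not searched.

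Prolyl 4-hydroxylase is a tetramer of 2 catalytic alpha subunits and 2 beta subunits. P4HA1 (ENSG00000122884.12, chr10:73007217-73096974, minus strand), the main alpha subunit of most tissues, was at 35.2 and 40.0 CPM in WT cells and at 69.5 and 70.5 CPM in HSF1-pLVX cells. The libraries separated clearly, with a log2 fold change of 0.90 (SE 0.10, adjusted p = 4.77e-17) and log2 ratios of 0.98 and 0.82 within replicates 1 and 2. P4HA2 (ENSG00000072682.18, chr5:132191838-132295315, minus strand), the second alpha subunit, was at 143 and 134 CPM in WT and at 169 and 174 CPM in HSF1-pLVX cells. This smaller difference, a log2 fold change of 0.31 (SE 0.11, adjusted p = 9.53e-03), was lost with DESeq2's Wald test (adjusted p = 0.068). It was also lost without WT replicate 2 (adjusted p = 0.0639) or without HSF1-pLVX replicate 2 (adjusted p = 0.0854), the range over all alternatives being 5.88e-04 to 0.0854.

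The balance of the 2 main alpha subunits differed. P4HA1 made up 40.1 and 44.8% of the summed per-length level of P4HA1, P4HA2 and P4HA3 in the WT libraries and 52.9 and 52.5% in the HSF1-pLVX libraries. P4HA2 made up 59.3 and 54.6% in WT and 46.7 and 47.0% in HSF1-pLVX cells. This order holds per length and not by counts, where P4HA2 stayed ahead in HSF1-pLVX cells, with 70.8% against 28.9% for P4HA1. P4HA3, the third alpha subunit, was below 1% of the sum throughout, at 0.72 ± 0.033 and 0.73 ± 0.18 CPM (SD, n = 2). The summed level of the alpha subunits was 28.6 ± 0.36 CPM per kilobase in WT and 43.0 ± 0.65 in HSF1-pLVX cells. The beta subunit P4HB, which is the general disulphide isomerase PDI and is made in large excess, went the other way, from 883 and 793 CPM to 570 and 600 CPM, or a log2 fold change of -0.52 (SE 0.15, adjusted p = 8.45e-04). The alpha subunits thus amounted to 17.0 and 19.3% of the per-length level of P4HB in the WT libraries and to 39.6 and 38.4% in the HSF1-pLVX libraries. For these shares and for those of the other enzyme families, the exact permutation test gave p = 0.333 (two-sided), the smallest p that 2 libraries against 2 allow.

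Lysyl hydroxylases act on different lysines of the chain: PLOD1 (LH1) mainly in the triple helix, PLOD2 (LH2) in the telopeptides, where it sets the type of cross-link, and PLOD3 (LH3) as a hydroxylase that also transfers sugars. PLOD1 (ENSG00000083444.16, chr1:11934205-11975538, plus strand) stood at 175 and 163 CPM in WT and at 352 and 347 CPM in HSF1-pLVX cells. The log2 fold change was 1.05 (SE 0.12, adjusted p = 2.63e-17). It fell below the 2-fold limit, to 0.98, without WT replicate 2. PLOD3 (ENSG00000106397.11, chr7:101205977-101218420, minus strand) was at 105 and 112 CPM and at 159.7 and 171 CPM, a log2 fold change of 0.61 (SE 0.11, adjusted p = 8.45e-08).

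PLOD2 (ENSG00000152952.11, chr3:146069440-146163653, minus strand) was the only one of the 10 to be called lower. It was at 322 and 352 CPM in WT and at 277 and 245 CPM in HSF1-pLVX cells, with no overlap between the groups. The log2 fold change was -0.37 (SE 0.12, adjusted p = 4.94e-03), or 1.29-fold lower, with a change of -0.21 within replicate 1 and -0.52 within replicate 2. The call was lost without HSF1-pLVX replicate 2 (adjusted p = 0.119, the highest over the alternatives, the lowest being 2.28e-05).

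Within the family the shares differed between the variants. PLOD2 took 45.0 and 47.7% of the summed per-length level of the 3 lysyl hydroxylases in the WT libraries and 27.8 and 25.2% in the HSF1-pLVX libraries. PLOD1 took 35.1 and 31.8% in WT and 50.7 and 51.2% in HSF1-pLVX cells, so that PLOD2 was first in both WT libraries and PLOD1 in both HSF1-pLVX libraries. PLOD3 took 20.2 ± 0.38% in WT and 22.6 ± 1.48% in HSF1-pLVX cells (SD, n = 2). The summed level of the family was 95.0 ± 2.06 CPM per kilobase in WT and 129 ± 2.31 in HSF1-pLVX cells.

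**Figure D2:**
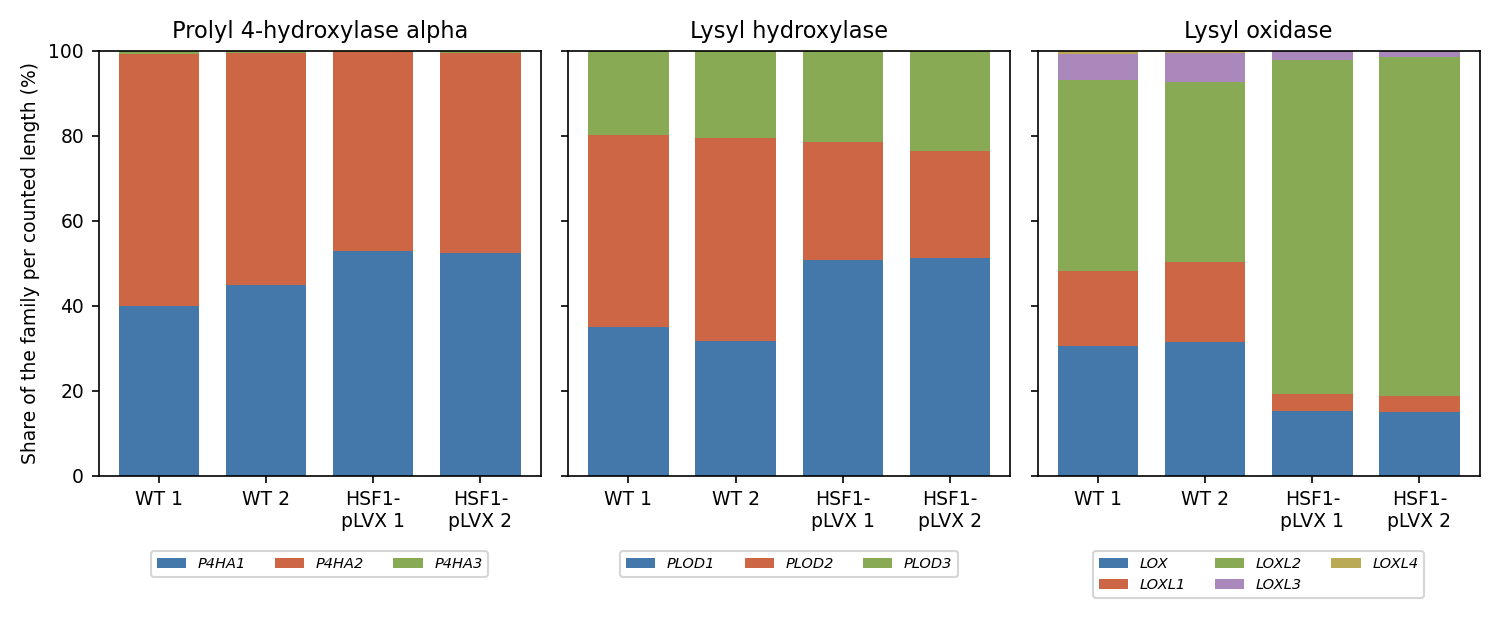
Share in percent of each isoenzyme in the summed per-length level of its family in each of the 4 libraries, for the prolyl 4-hydroxylase alpha subunits, the lysyl hydroxylases and the lysyl oxidases. In the HSF1-pLVX libraries P4HA1 is above P4HA2 per length, though not by counts, PLOD1 is above PLOD2, and LOXL2 takes 79.2 ± 0.83% of the lysyl oxidases (SD, n = 2) against 43.8 ± 1.82% in WT.

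Of the 10 genes, LOXL2 moved most. LOXL2 (ENSG00000134013.15, chr8:23297189-23425328, minus strand) encodes a secreted lysyl oxidase with scavenger receptor domains that cross-links collagen type IV as well as fibrillar collagens. It was at 30.5 and 26.1 CPM in the WT libraries and at 192 and 188 CPM in the HSF1-pLVX libraries. All values of HSF1-pLVX cells were far above those of WT cells, a log2 fold change of 2.75 (SE 0.12, adjusted p = 1.47e-121), or 6.73-fold. Of all tested genes, 98.3% had a lower log2 fold change. Omitting any 1 library gave values between 2.62 and 2.88, and the log2 ratios within replicates 1 and 2 were 2.65 and 2.85.

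LOX (ENSG00000113083.13, chr5:122063195-122078360, minus strand), the founding lysyl oxidase, was at 20.0 and 18.8 CPM in WT and at 36.2 and 34.7 CPM in HSF1-pLVX cells. It rose by 0.87 on the log2 scale (SE 0.12, adjusted p = 8.49e-13), and by 0.86 and 0.88 within replicates 1 and 2. LOXL1 (ENSG00000129038.15, chr15:73925989-73952137, plus strand), which is best known for elastic fibres, was at 7.62 and 7.32 CPM in WT and at 6.01 and 5.34 CPM in HSF1-pLVX cells. The groups did not overlap, but the log2 fold change of -0.40 (SE 0.19) missed the threshold at an adjusted p of 0.0516. Without the replicate block the adjusted p was 0.0466 and with DESeq2's size factors in edgeR 0.0398, so the call depends on the design, and over all alternatives it ran from 0.0351 to 0.323. LOXL1 rested on 106 to 151 counts per library.

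Per length, LOXL2 was the most abundant lysyl oxidase in WT cells already, with 45.0 and 42.5% of the family, and held 78.6 and 79.8% in the HSF1-pLVX libraries. LOX had 31.0 ± 0.76% of the family in WT and 15.2 ± 0.12% in HSF1-pLVX cells, although its own level rose. LOXL1 had 18.2 ± 0.72% in WT and 3.71 ± 0.23% in HSF1-pLVX cells. The remaining relatives were low. LOXL3 was at 3.14 and 3.18 CPM in WT and at 3.98 and 2.77 CPM in HSF1-pLVX cells and was not called, and LOXL4, with at most 0.32 CPM, was too low to be tested. The summed level of the 5 genes was 11.3 ± 0.77 CPM per kilobase in WT and 42.0 ± 0.94 in HSF1-pLVX cells.

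The study selected genes by the ratio of HSF1-pLVX to WT in the deposited normalized table, which had to exceed 2.0 or lie below 0.50 in each replicate. Upwards, 5.00% of the 22321 rows passed. SERPINH1, FKBP10 and LOXL2 were among them. SERPINH1 was just inside with ratios of 2.01 and 2.08, and PLOD1 just outside with 1.95 and 2.10. LOXL2 had ratios of 5.95 and 6.97 and FKBP10 of 2.13 and 2.69. P4HA1 (1.89 and 1.73), LOX (1.72 and 1.80), PLOD3 (1.46 and 1.52) and P4HA2 (1.14 and 1.28) were above 1 in both replicates but short of the limit. PLOD2 (0.836 and 0.692) and LOXL1 (0.787 and 0.751) were below 1 in both replicates but above the lower limit.

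The calls of 7 of the genes held under every alternative normalization, filter, test and design tried, and with any library omitted. Over these alternatives the highest adjusted p was 0.00254 for LOXL2, 0.00425 for FKBP10, 0.00454 for SERPINH1 and 0.00548 for PLOD1. It was 0.00717 for LOX, 0.00811 for P4HA1 and 0.0154 for PLOD3. The blocked fit gave far smaller values, and with no block the test returned an adjusted p of 2.84e-11 for LOXL2, 2.07e-08 for FKBP10 and 9.87e-08 for SERPINH1. P4HA2 and PLOD2 each lost their call when a library was omitted, and LOXL1 lay at the threshold.

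Other enzymes and partners that modify collagen in the endoplasmic reticulum were examined as a list. Counts for this and the later lists are to be read beside the shares of all tested genes. These were 32.5% called higher and 32.7% lower, and 14.9% and 14.0% at least 2-fold higher and lower. Of 11 such genes 10 were tested, 6 were called higher, 2 lower and 2 were not called, with a median log2 fold change of 0.32. P3H2, a prolyl 3-hydroxylase of basement membrane collagens, was at 90.9 and 80.0 CPM in WT and at 219 and 271 CPM in HSF1-pLVX cells (log2 fold change 1.51, SE 0.11, adjusted p = 1.38e-38). The prolyl 3-hydroxylation complex of P3H1, CRTAP and cyclophilin B was not evenly changed. CRTAP rose 2.19-fold, from 108 ± 10.5 to 238 ± 23.8 CPM (adjusted p = 2.42e-22). P3H1 (0.45, adjusted p = 8.14e-04) and PPIB, the gene of cyclophilin B (0.32, adjusted p = 6.11e-03), changed less, and both calls were lost with at least 1 alternative, where the adjusted p reached 0.0846 and 0.122. COLGALT1, which adds galactose to hydroxylysine, was higher by 0.31 (adjusted p = 7.81e-03), also with a call that was lost in places (adjusted p up to 0.103). P3H4, the partner of PLOD1 and P3H3 in helical lysine hydroxylation, fell by 0.55 (SE 0.11, adjusted p = 2.74e-06).

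The relatives of FKBP10 were called in both directions. Of the 5 other FKBP isomerases of the endoplasmic reticulum, 2 were called higher, 2 lower and 1 was not called, with a median log2 fold change of -0.19. With 5 genes, these counts do not differ clearly from the shares of all tested genes (32.5% higher and 32.7% lower). FKBP2 fell from 84.8 ± 2.17 to 58.6 ± 5.10 CPM (log2 fold change -0.54, adjusted p = 4.86e-07) and FKBP9 from 130.3 ± 0.040 to 94.0 ± 4.77 CPM (-0.47, adjusted p = 2.19e-05). FKBP11 was at 13.1 and 13.6 CPM in WT and at 17.4 and 17.9 CPM in HSF1-pLVX cells (0.41, adjusted p = 5.37e-03), a call that was lost with DESeq2's Wald test (adjusted p = 0.16, the highest over the alternatives) and without HSF1-pLVX replicate 2 (adjusted p = 0.052). FKBP7, the other relative called higher, was at 1.07 ± 0.083 CPM in WT and at 2.48 ± 0.19 CPM in HSF1-pLVX cells (1.21, adjusted p = 4.98e-04, up to 0.0963 over the alternatives). FKBP14, the closest in role to FKBP10, was at 14.8 and 18.5 CPM in WT and at 15.0 and 14.0 CPM in HSF1-pLVX cells (adjusted p = 0.225).

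**Figure D3:**
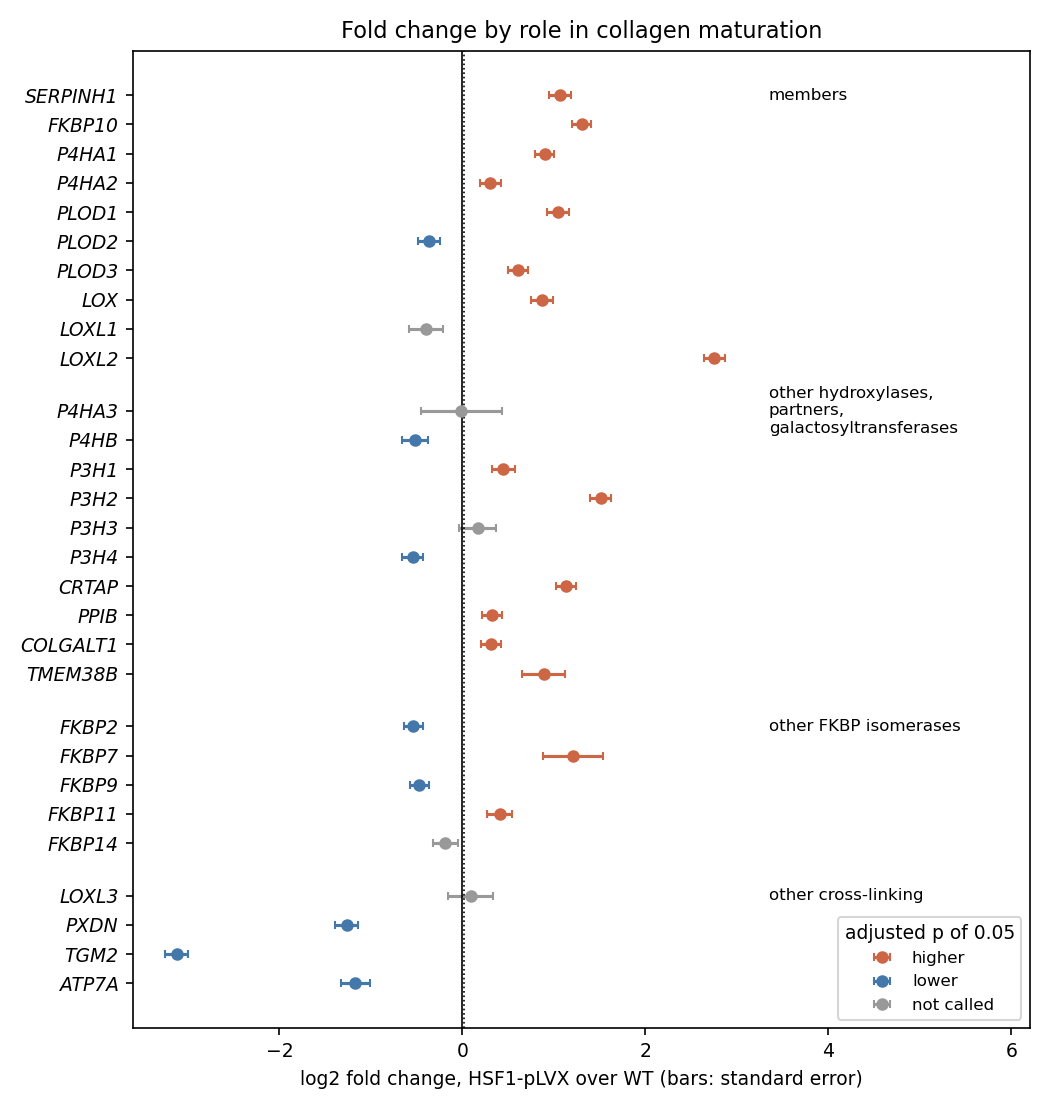
Log2 fold change (HSF1-pLVX over WT) with its standard error for the 10 collagen enzymes and the tested genes of 3 related lists, coloured by the edgeR call at an adjusted p of 0.05. The dotted line is the median of all tested genes, 0.02. LOXL2 at 2.75 and TGM2 at -3.13 are the extremes.

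Of 5 other cross-linking genes, LOXL3 and LOXL4 included, 4 were tested and 3 were called lower, all at least 2-fold, with a median log2 fold change of -1.22. TGM2, the tissue transglutaminase, was at 409 and 351 CPM in WT and at 52.0 and 36.0 CPM in HSF1-pLVX cells (log2 fold change -3.13, SE 0.13, adjusted p = 3.50e-130). PXDN, the peroxidase that makes the sulfilimine cross-links of collagen type IV, went from 498 ± 1.30 to 207 ± 7.63 CPM (-1.26, adjusted p = 5.37e-22). ATP7A, the pump that supplies copper to secreted lysyl oxidases, went from 14.2 and 15.8 CPM to 6.65 and 6.64 CPM (-1.17, adjusted p = 1.09e-12).

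Export from the endoplasmic reticulum and removal of the propeptides follow modification. Of 15 export genes 1 was called higher and 7 lower, with a median of -0.15. SEC13, a subunit of the COPII coat, fell by 0.81 (adjusted p = 1.55e-12), and KDELR3, one of 3 KDEL receptors, had a log2 fold change of -2.57 (adjusted p = 3.90e-78), while KDELR1 and KDELR2 were not called. KLHL12, the ubiquitin ligase adaptor for large COPII carriers, was higher by 0.44 (adjusted p = 2.91e-04) except with DESeq2's Wald test (adjusted p = 0.0514, the highest over the alternatives). Of 8 genes for propeptide removal 6 were tested, of which 2 were called higher and 2 lower. BMP1, the procollagen C-proteinase, which also activates LOX, fell from 226 ± 2.03 to 117 ± 0.66 CPM (-0.95, adjusted p = 2.20e-16). Its enhancer PCOLCE was higher at a low level, at 1.12 and 1.88 CPM in WT and 4.14 and 4.73 CPM in HSF1-pLVX cells (1.58, adjusted p = 2.06e-08). ADAMTS14, an N-proteinase, fell from 26.9 and 45.5 CPM to 1.04 and 1.06 CPM (-5.05, adjusted p = 2.79e-161).

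Lysyl oxidases act and assemble on a scaffold of extracellular proteins. Of 11 such genes 7 were tested, 5 were called lower and 2 higher, and ELN, the gene of elastin, was too low to be tested. THBS1 fell by 3.25 on the log2 scale (SE 0.23, adjusted p = 1.63e-43), FBN1, which encodes fibrillin, by 2.85 (SE 0.12, adjusted p = 4.54e-116) and FN1, which encodes fibronectin, by 2.39 (SE 0.26, adjusted p = 3.90e-19). LTBP4, an elastic fibre assembly protein, rose from 23.7 ± 0.93 to 69.3 ± 11.9 CPM, or by 1.54 on the log2 scale (SE 0.11, adjusted p = 1.12e-43).

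The collagen chains themselves, the substrates of these enzymes, changed in both directions. Of 11 fibrillar chains, 6 were tested, and 3 were called higher and 1 lower. The largest changes among them were at a low level. COL2A1 rose from 0.134 ± 0.037 to 5.17 ± 0.44 CPM (log2 fold change 5.21, SE 0.43, adjusted p = 3.94e-33). COL5A1 fell from 5.44 ± 0.68 to 0.155 ± 0.0059 CPM (-5.06, SE 0.40, adjusted p = 2.95e-35). The chains of collagen type I were low, as COL1A1 was at 7.19 and 10.4 CPM in WT and at 10.7 and 9.21 CPM in HSF1-pLVX cells (adjusted p = 0.287), and COL1A2 was at most 0.0533 CPM. COL27A1, at 16.5 and 19.2 CPM in WT and at 75.4 and 77.1 CPM in HSF1-pLVX cells, was the only fibrillar chain called higher with more than 10 CPM on average (log2 fold change 2.10, SE 0.11, adjusted p = 4.59e-76). Of 23 other chains 17 were tested, and 8 were called higher and 7 lower, with a median of -0.07.

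Among these, the chains of basement membrane collagen split by pair. COL4A1 fell from 219 ± 5.45 to 38.3 ± 1.58 CPM (-2.51, SE 0.11, adjusted p = 4.37e-103) and COL4A2 was at 486 and 453 CPM in WT and at 144 and 132 CPM in HSF1-pLVX cells (-1.77, adjusted p = 6.90e-43). COL4A6 rose from 75.3 ± 2.18 to 184 ± 10.7 CPM (1.29, SE 0.11, adjusted p = 1.63e-30), and COL4A5, its neighbour on the X chromosome and its partner in one form of collagen type IV, rose by 0.74 (adjusted p = 1.85e-11). At a low level, COL4A4 fell from 2.65 ± 0.17 to 0.375 ± 0.033 CPM (-2.80, adjusted p = 8.69e-12), and COL4A3 was too low to be tested. COL7A1, the anchoring fibril collagen of squamous epithelia, was at 73.1 and 88.8 CPM in WT and at 255 and 305 CPM in HSF1-pLVX cells (1.79, adjusted p = 1.77e-51). COL17A1, a transmembrane collagen of hemidesmosomes and the highest of all tested chains per length, was at 1333 and 1255 CPM in WT and at 1924 and 2209 CPM in HSF1-pLVX cells (0.67, adjusted p = 3.46e-04). COL22A1, a collagen of tissue junctions, was at 38.8 and 46.2 CPM in WT and at 12.8 and 10.2 CPM in HSF1-pLVX cells (-1.88, adjusted p = 6.57e-51).

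**Figure D4:**
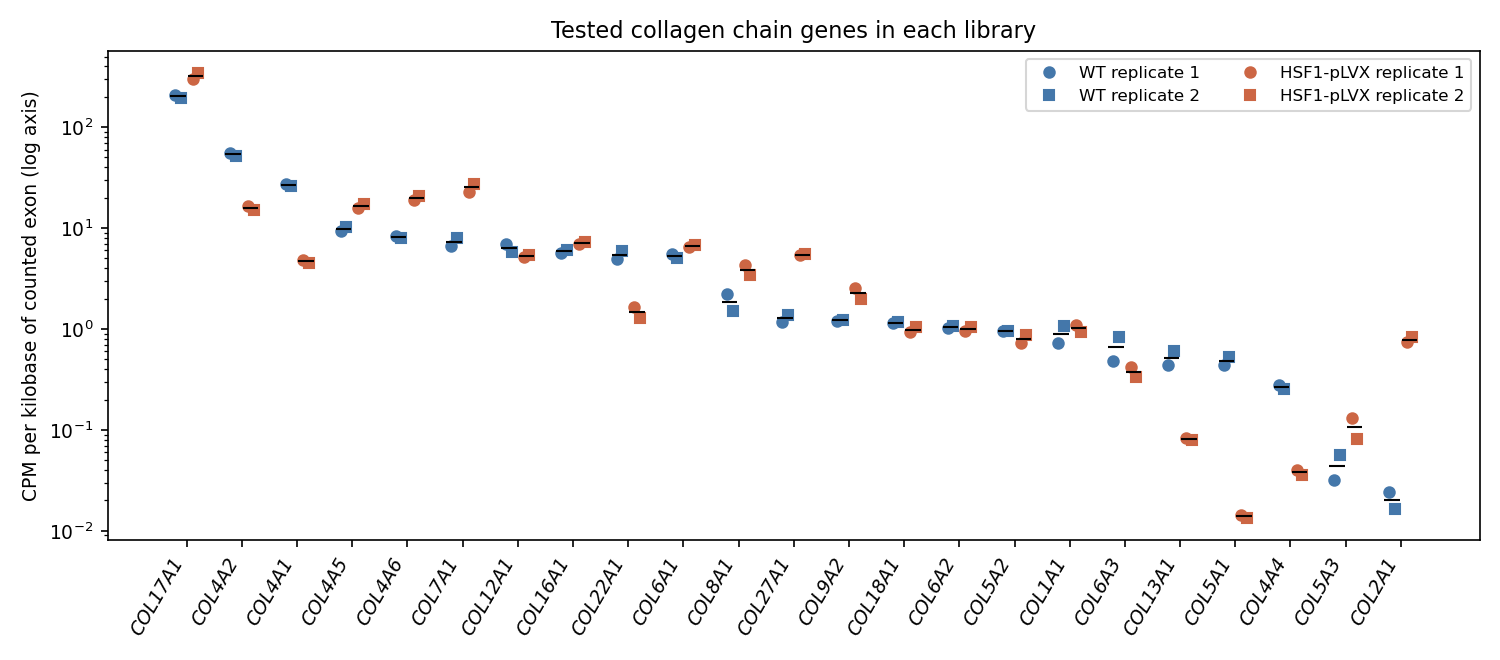
Level of every tested collagen chain gene in CPM per kilobase of counted exon, on a log axis, ordered by the mean in WT, with circles for replicate 1, squares for replicate 2 and black lines for group means. COL4A1 and COL4A2 are lower and COL4A5, COL4A6, COL7A1 and COL17A1 higher in both HSF1-pLVX libraries.

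PLOD2, LOX and P4HA1 are also known as hypoxia genes. The other genes of the list were not sorted by this trait. The core ACGTG, bound by hypoxia-inducible factors and by many other proteins, is held by 21.4% of promoter windows and by those of 4 of the 8 genes, PLOD2, LOX, P4HA1 and SERPINH1. For PLOD2, LOX and P4HA1 the match farthest from the start in the first window is printed in capitals, since these genes differ in direction. The letters run in the direction of transcription, and CACGT is the core on the other strand. P4HA1 is at chr10:73096936-73096965, PLOD2 at chr3:146161368-146161397 and LOX at chr5:122078428-122078457, all on the minus strand. An exon of 2 of 6, 5 of 31 and 0 of 6 GENCODE release 44 transcripts, respectively, lies there.
P4HA1: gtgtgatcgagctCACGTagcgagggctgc
PLOD2: gcgtgagcctccaCACGTagccgcaggcag
LOX: cgctccctgtgcaACGTGtctggggggagg
Of these 3 genes with the core, P4HA1 and LOX were higher and PLOD2 was lower in HSF1-pLVX cells. SERPINH1, which also holds the core, was called higher, and so were P4HA2, PLOD1 and PLOD3, whose windows lack it. LOXL1 lacks it too and was not called. The GC box GGGCGG, held by 45.0% of windows, was found in 5 of the 8 genes, PLOD1, PLOD2, PLOD3, LOX and SERPINH1. The 8 genes had 11 windows, and a gene was counted if any of its windows held the motif. Counts of genes and shares of windows, here and for the other motifs searched, are therefore unlike measures.

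The genes next to the collagen enzymes on the chromosomes were examined in the same fit. Of the 20 nearest tested neighbours, 1 on each side by start coordinate, 6 were called higher, 6 lower and 8 were not called. Of all tested genes, 32.5% were called higher and 32.7% lower. The median log2 fold change of the neighbours was 0.00. Neighbours chosen by start can overlap the gene or lie inside it, as LOXL2-AS1 does in LOXL2 and ENSG00000224431 in P4HA2. Of 18 neighbours of called genes, 6 were called in the same direction as their neighbour, to be read beside these shares of all tested genes. LOXL2-AS1 and ENSG00000224431, both on the strand opposite to their gene, are among the 6. FKBP10 and P3H4 lie head to head, P3H4 ending at 41812604 and FKBP10 beginning at 41812680 on chromosome 17, and were called in opposite directions. SERPINH1 and DGAT2 were both called higher, as were LOX and SNCAIP. NPM1P24 (log2 fold change 1.90) and NUDT13 (1.12), the neighbours of P4HA1, were also called higher. R3HCC1 and PLSCR4, which lie beside LOXL2 and PLOD2, were not called. LOXL2-AS1, the other neighbour of LOXL2, was called higher (4.52, adjusted p = 8.13e-14).

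Parts of some of these genes overlap genes on the other strand, and the strand setting of the counting is not given in the sources used here. The shared exons were 9.21% of LOXL1 (LOXL1-AS1), 7.56% of PLOD3 (ZNHIT1), 6.45% of P4HA2 (P4HA2-AS1), 2.49% of LOX (SRFBP1) and 178 bases of LOXL2 (LOXL2-AS1). LOXL2-AS1 had 2 and 1 counts in WT and 50 and 39 counts in HSF1-pLVX cells, and its reads cannot be told apart from those of LOXL2 in the shared part. On the same strand, ENTPD4 shared 120 bases, or 2.10%, of LOXL2. ENTPD4 was at 64.3 and 70.5 CPM in WT and at 63.4 and 56.1 CPM in HSF1-pLVX cells and was not called (adjusted p = 0.123). ZNHIT1, at 76.4 and 72.9 CPM in WT and at 58.2 and 65.3 CPM in HSF1-pLVX cells, went against PLOD3.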

How the data were processed

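RNA-seq of 2 WT and 2 HSF1-pLVX libraries was analysed. Per the labels, total RNA depleted of ribosomal RNA was read in pairs, and the deposited raw counts per gene were made by the authors with HISAT2 2.0.5, SAMtools 1.13 and featureCounts 1.6.5 on hg38 and GENCODE release 26. The deposited normalized table was made with DESeq2 1.32.0 and holds log2-like values, which were used only for the ratio criterion. DESeq2's blind variance-stabilizing transformation gave them for the 10 genes to within 7.6e-06.

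The deposited counts entered edgeR 4.0.16 under R 4.3.3 (TMM, filterByExpr, quasi-likelihood test, block by replicate number), with DESeq2 1.42.0 as an alternative. The fit was also run on simulated counts with far fewer changed genes than were called here. That run therefore does not show how the calls perform on these data. The block follows the study's ratios, which pair samples of the same number. SE is the absolute log2 fold change divided by the square root of F. With the block the prior degrees of freedom were infinite, so the small p-values rest on the spread shared between genes. Counts of a replicate pair differed by more than sampling noise (chi-square per degree of freedom 6.62 in WT and 8.04 in HSF1-pLVX cells). Nothing says that the replicates came from separate cultures beyond their labels as biological replicates, so p-values measure the spread between these libraries.

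The genes and lists were chosen with earlier results of these data known. Besides the 10 genes and HSF1, the text names from each list the 2 largest rises and 2 largest falls among called genes with a mean of at least 10 CPM, together with obligate partners and closest paralogs. Genes named outside that rule were chosen after their values were seen. Examples are COL2A1, COL4A2, COL4A3, COL4A4, COL4A5, COL5A1, COL17A1, ATP7A, FN1, FKBP7, KRT17, TWIST2 and markers at or near 0. Promoter sequences are from RefSeq (GRCh38.p14) and were matched by symbol for 8 of the 10 genes. No authors' comparisons were used.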

Additional observations from a re-analysis of the deposited data

How the results depend on the processing

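The counts of calls among the 10 genes were 8 higher and 1 lower in the reported fit. With DESeq2's size factors in edgeR, with no replicate block and with the crossed replicate block (chosen after seeing the data), 2 were called lower, LOXL1 being the addition. Leaving out each library in turn, in a fit with no replicate block because 3 libraries leave no residual degree of freedom with it, gave 7 to 8 called higher, 0 to 1 called lower and 3 to 4 at least 2-fold higher. The lone library of a group was then assumed to vary like the other group. P4HA2 was the gene no longer called higher without WT replicate 2 or HSF1-pLVX replicate 2, and PLOD2 no longer called lower without the latter. The median of the 10 genes stayed between 0.87 and 0.94 over all alternatives, and HSF1 between 2.29 and 2.41. Over all tested genes, DESeq2's Wald test called 3318 higher, the only such count to differ by over 1.5 times, and without HSF1-pLVX replicate 2 there were 3783 higher and 3846 lower.

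Replicate numbers do not mark a shared culture in the labels. The correlation of same-numbered deviations was 0.00138 over all 15830 genes in the test and -0.113 over 9672 genes with more than 8 CPM. Without the block 5175 genes were called higher and 5253 lower, and with the crossed pairing 5429 and 5487, beside 5138 and 5171 with the block.

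Shares taken from counts instead of per length gave a rise of 7.66 percentage points for P4HA1 (10.3 per length) and of 32.8 for LOXL2 (35.4 per length), and by counts P4HA1 stayed below P4HA2 in HSF1-pLVX cells, at 28.9 against 70.8%. Genes that were not called changed sign in places, namely P4HA3 (0.047 with library size only, and -0.26 to 0.25 with each library left out), LOXL3 (-0.19 to 0.34 with each library left out) and COL1A1 (-0.041 to 0.46 with each library left out). The cause of these shifts was not tested. The 62 single genes followed kept their calls with no filter on low counts. Among the 10 collagen enzymes LOXL1 had the fewest counts, 106 to 151 per library.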

Other observations

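General chaperones and disulphide isomerases of the endoplasmic reticulum were mostly not raised together with the collagen enzymes. Of 14 such genes 13 were tested, 1 was called higher and 7 lower, with a median log2 fold change of -0.34. For this list and those below, the shares of all tested genes were 32.5% called higher and 32.7% lower. CALR, which encodes calreticulin, fell from 1305 ± 81.8 to 652 ± 24.8 CPM (SD, n = 2, adjusted p = 1.10e-09), and DNAJC3, a co-chaperone of BiP, fell by 0.88 (adjusted p = 3.54e-15). PDIA4 was higher by 0.32 (adjusted p = 0.0108), a call that was lost without WT replicate 2 (adjusted p = 0.0892) or without HSF1-pLVX replicate 2 (0.0939, the highest over the alternatives). CANX and HYOU1, which nearly all cells express, were listed near 0 in all 4 libraries, a value not read as absence of expression. CANX passed the filter and, as 1 of the 5 genes not called, is part of the median, while HYOU1 was not tested.

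Of 16 heat shock genes known to be activated by HSF1, 14 were tested, 8 were called higher and 2 lower, with a median log2 fold change of 0.67. The mitochondrial chaperonin pair HSPD1 and HSPE1 rose by 1.84 and 1.23 (adjusted p = 6.14e-42 and 5.78e-27). HSP90AA1 fell by 0.65 (adjusted p = 1.64e-04) and DNAJB1 by 0.34 (adjusted p = 0.0115, and 0.0734 without HSF1-pLVX replicate 2, the highest over the alternatives). HSPA1A and HSPA1B were listed at 0 counts in all 4 libraries, which, as for CANX and HYOU1, was not read as absence of expression, and the cause was not tested.

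Of 16 hypoxia genes 9 were called higher, 2 lower and 5 were not called, with a median of 0.36. NDRG1 rose from 146 and 129 to 514 and 649 CPM and VEGFA from 53.2 ± 5.50 to 204 ± 14.4 CPM (log2 fold changes 2.08 and 1.94, adjusted p = 1.53e-53 and 1.28e-64). SLC2A1, the glucose transporter GLUT1, fell by 0.80 (adjusted p = 5.64e-11). ADM was at 36.0 and 51.4 CPM in WT and at 30.9 and 36.5 CPM in HSF1-pLVX cells, and its call (-0.36, adjusted p = 1.97e-03) was lost without WT replicate 2 (adjusted p = 0.422, the highest over the alternatives), without either HSF1-pLVX replicate, with library size only and with DESeq2's Wald test.

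Of 12 TGF-beta response genes 2 were called higher, 9 lower and 1 was not called, with a median of -1.41. TAGLN, a smooth muscle and mesenchymal actin-binding protein, fell from 388 ± 0.10 to 11.4 ± 0.032 CPM (log2 fold change -5.08, adjusted p = 6.04e-269), and TGFB2 from 74.9 ± 3.65 to 2.03 ± 0.73 CPM (-5.17, adjusted p = 6.18e-251). TGFBI, a secreted protein that binds collagen, rose from 1164 ± 32.3 to 3593 ± 145 CPM (1.63, adjusted p = 9.18e-16), and LTBP3 rose by 0.41 (adjusted p = 2.22e-03).

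Among the marker lists, VIM rose from 12.3 ± 2.28 to 48.5 ± 2.77 CPM (1.99, adjusted p = 2.03e-58) and TWIST1 from 5.65 ± 0.31 to 15.8 ± 2.67 CPM (1.48, adjusted p = 1.07e-18), while FAP fell by 2.36 (adjusted p = 1.16e-92). KRT5 and TP63 rose by 1.12 and 3.48 (adjusted p = 3.80e-07 and 1.15e-176), and KRT14 and KRT8 had log2 fold changes of -3.55 and -3.25 (adjusted p = 5.44e-146 and 2.97e-60).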
